A study of Mus musculus with 10 samples.

Results

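The 9 enzymes described here make serine from a glycolytic intermediate, carry serine's one-carbon unit through the mitochondrion, or make asparagine. They were chosen by name, as the serine, asparagine and folate enzymes on a prepared list that the expression table holds. Earlier results of these data were known at the time of the choice. They are 9 of the 11228 genes in the table, and all 9 were among the 10993 genes that reached the mean of 1 FPKM over the 6 libraries required for testing. FPKM, the deposited unit, counts sequenced fragments relative to the length of the transcript and to all mapped fragments of a library, so levels can be compared between genes.

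The series knocked down Charme, a muscle long non-coding RNA. It used mouse myotubes, which are the multinucleate cells made by fusion of myoblasts. All libraries came from myotubes differentiated in culture for 2 days and treated with gapmers, antisense oligonucleotides through which RNase H cuts the matching RNA. The groups were GAP-scr, the control gapmer, and 2 gapmer sets against Charme named GAP-2 and GAP-2/3, with 2 polyadenylated RNA libraries each, replicates A and B. The labels do not give which oligonucleotides each set holds, the cell line or animals behind the cultures, or whether the 2 libraries of a group came from separate cultures. The design text calls them biological replicates, and each p-value reflects the spread of the libraries, which could be technical. The level of Charme is not analysed here. The strength of the knock-down in each library is therefore not known, and group membership comes from the labels.

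Cells build serine from 3-phosphoglycerate in 3 steps, catalysed by PHGDH, PSAT1 and PSPH. SHMT enzymes then split serine into glycine and a one-carbon unit carried on folate. In the mitochondrion MTHFD2 oxidises that unit, and it leaves either as formate, released by MTHFD1L, or as carbon dioxide with NADPH, released by ALDH1L2. In the cytosol MTHFD1 takes the formate up again for purine, thymidylate and methionine synthesis. ASNS makes asparagine from aspartate and glutamine. Genes of several, but not all, of these enzymes are textbook targets of the transcription factor ATF4. Translation of ATF4 rises when eIF2 is phosphorylated under amino acid shortage or endoplasmic reticulum or mitochondrial stress. ATF4 with a C/EBP partner binds a composite element first characterised in genes such as Asns.

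The promoters of 3 of these enzymes are printed below because the genes share a fall in GAP-2/3 and stand at different points of it: Asns, the only one of the 8 searched with a match to the composite element, Shmt2, the enzyme with the largest fall against GAP-scr, and Psat1, the called enzyme with the smallest. Sequences are from RefSeq on GRCm38.p6, from 250 bases before to 50 after the transcript start, read 5′ to 3′ on the gene's strand, which is the minus strand for all 3. They lie at chr6:7693160-7693459 (Asns), chr10:127522395-127522694 (Shmt2) and chr19:15925010-15925309 (Psat1, the first of its 2 entries). Capitals mark the match to TGATGNAA.
Asns: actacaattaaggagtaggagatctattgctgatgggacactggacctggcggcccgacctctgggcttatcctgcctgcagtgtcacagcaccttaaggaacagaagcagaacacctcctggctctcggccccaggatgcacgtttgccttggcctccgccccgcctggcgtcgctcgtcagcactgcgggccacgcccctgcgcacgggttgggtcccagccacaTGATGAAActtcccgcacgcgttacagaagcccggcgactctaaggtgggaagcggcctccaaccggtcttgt
Shmt2: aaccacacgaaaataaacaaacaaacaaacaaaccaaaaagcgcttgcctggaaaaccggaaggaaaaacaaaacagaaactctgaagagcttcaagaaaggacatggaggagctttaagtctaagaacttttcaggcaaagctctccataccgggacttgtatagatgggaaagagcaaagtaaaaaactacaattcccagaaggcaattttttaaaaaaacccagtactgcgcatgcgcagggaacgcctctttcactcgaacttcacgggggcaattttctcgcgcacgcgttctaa
Psat1: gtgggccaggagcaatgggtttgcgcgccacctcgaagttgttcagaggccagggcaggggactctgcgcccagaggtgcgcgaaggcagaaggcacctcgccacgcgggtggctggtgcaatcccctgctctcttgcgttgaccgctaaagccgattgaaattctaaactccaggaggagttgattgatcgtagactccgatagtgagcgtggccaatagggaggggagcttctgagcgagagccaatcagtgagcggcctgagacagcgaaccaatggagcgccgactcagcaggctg

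Promoters of 8 of the 9 enzymes were matched in the table, all but that of Aldh1l2. TGATGNAA, a short form of the composite element bound by ATF4 with C/EBP factors, was searched on both strands. It was found in 1 of the 8 enzymes, Asns, as TGATGAAA from 23 to 16 bases before the start, and in 3.97% of 32851 mouse promoters of the same length. CACGTG, the E-box bound by MYC and other factors, was found in 0 of the 8 and in 7.15% of all promoters. TGACNNNGC, the core that NRF2 binds, was found in Phgdh, Psph and Asns and in 12.4% of all promoters. A match describes these letters in this window only.

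In GAP-scr myotubes most of these genes were well expressed. Psat1, the aminotransferase of serine synthesis, was highest, at 199.8 ± 0.545 FPKM (SD, n = 2), a level above that of 96.4% of tested genes. Next came Asns at 121 ± 3.68, Phgdh at 107 ± 17.3, Shmt2 at 105 ± 4.03, Mthfd2 at 82.5 ± 11.5 and Aldh1l2 at 58.4 ± 1.30 FPKM. Psph stood at 35.1 ± 2.27 and Mthfd1l at 15.1 ± 1.11 FPKM. Shmt1, the cytosolic serine hydroxymethyltransferase, was lowest at 2.17 ± 0.799 FPKM, so the mitochondrial form Shmt2 exceeded it 37.4-fold in replicate A and 67.2-fold in replicate B. Neighbours in this order whose libraries overlapped, and which therefore did not differ beyond their spread, were Asns with Phgdh and Phgdh with Shmt2.

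The order was the same in GAP-2/3, where the libraries of Shmt2 and Mthfd2 overlapped. In GAP-2 it was the same but for Aldh1l2, at 80.6 ± 3.34 FPKM, which stood level with Shmt2, at 78.8 ± 0.273 FPKM, with overlapping libraries. Asns and Phgdh overlapped there too.

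**Figure D1:**
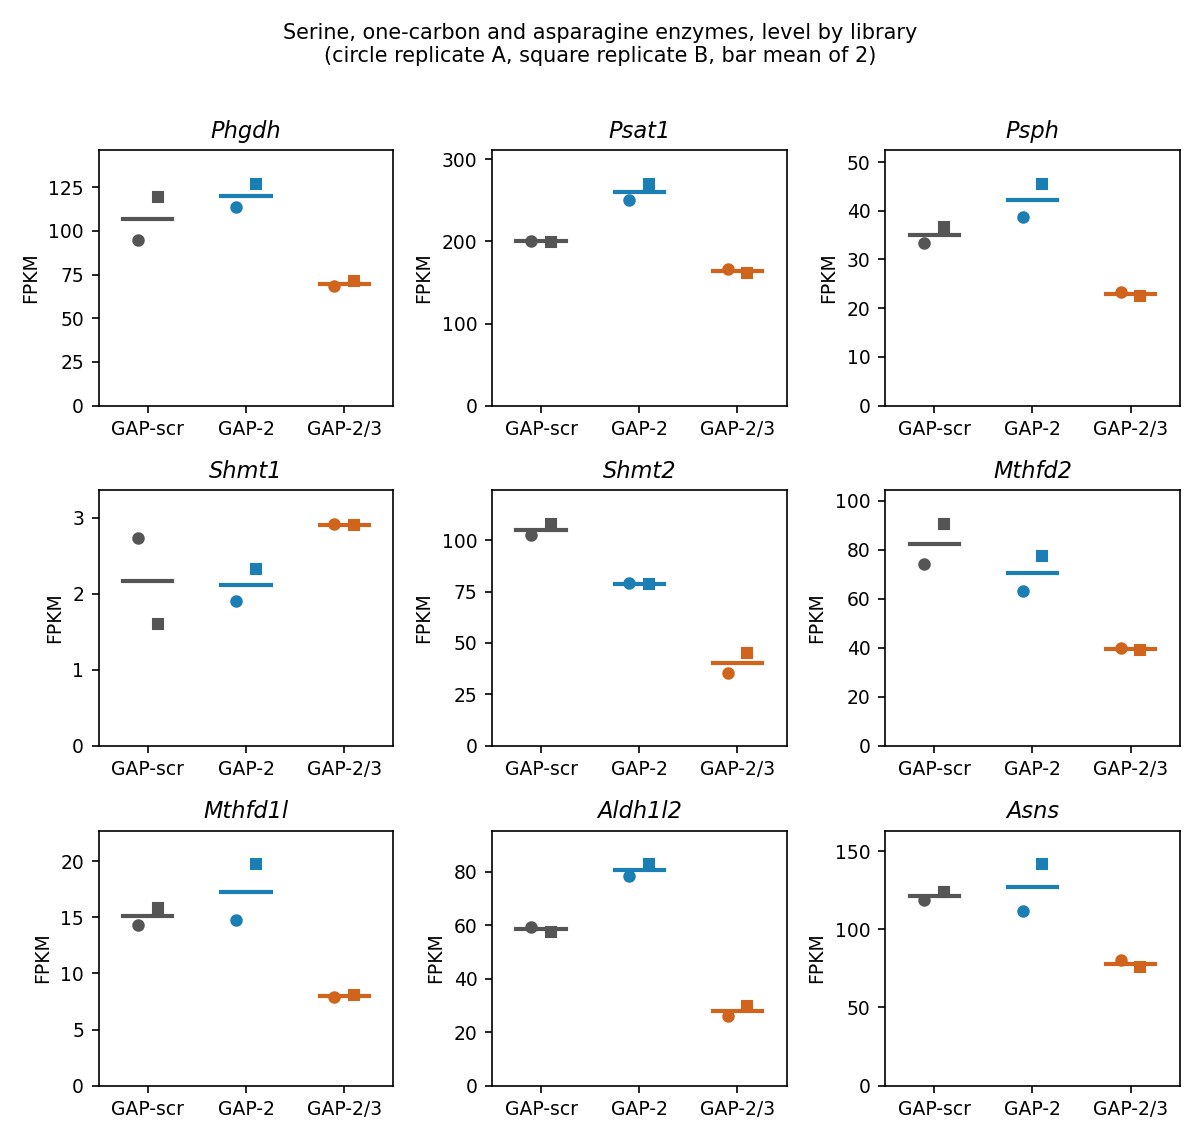
Level of each enzyme in FPKM (vertical axes, starting at 0) in the 3 groups, with a circle for replicate A, a square for replicate B and a bar for the mean of 2. In every panel but that of Shmt1 both GAP-2/3 libraries lie below the other 4. For Aldh1l2, Psat1 and Psph both GAP-2 libraries lie above all others, though for Psph the difference from GAP-scr did not pass the test described below. The means of Phgdh, Mthfd1l and Asns are also highest in GAP-2, with libraries that overlap those of GAP-scr.

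Several facts of the whole series bear on these values. Median FPKM per library ran from 11.9 to 13.3, and sequencing depth is unknown because FPKM does not retain it. Rn45s, the ribosomal RNA precursor, was uneven, with 4090 FPKM in replicate A of GAP-2, 3387 in replicate A of GAP-scr and 93.2 to 176 in the remaining 4. All 10 listed myotube markers, among them Acta1, Ckm and Myog, were in the table, with a summed level of 11797 and 12657 FPKM in GAP-scr, 7155 and 7371 in GAP-2, and 7828 and 8223 in GAP-2/3. Against GAP-scr 8 of the 10 fell in GAP-2, where 4.18% of all tested genes were lower by the test described below, and 5 in GAP-2/3, where 11.3% were lower and 28% higher. Of the 8 markers of cycling myoblasts 4 rose in GAP-2/3, where their sum was 88.1 to 102 FPKM against 56.4 to 74.7 in the other groups. Fibroblast markers (6 of 8 in the table) summed to 1383 and 1601 FPKM in GAP-2/3 and to 1868 to 2185 in the other groups, with 2 lower and 2 higher in GAP-2/3 against GAP-scr. Smooth muscle markers (3 of 4, without Myh11) summed to 2089.5 and 2340.6 FPKM in GAP-scr, 1361.8 and 1408.5 in GAP-2, and 1592 and 1563.8 in GAP-2/3. Against GAP-scr 2 of the 3 fell in GAP-2 and 1 in GAP-2/3. Of the macrophage and adipocyte markers 1 each was in the table, at no more than 3.54 FPKM, and of 5 endothelial markers none was. The macrophage marker, Cd68, rose in GAP-2 against GAP-scr and was lower in GAP-2/3 than in GAP-2. The part of these differences in the results below was not tested, and in bulk RNA fewer cells of a type and less RNA per cell cannot be told apart.

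The comparison of GAP-2/3 with GAP-scr asked what the second gapmer set did to the pathway. In this comparison 8 of the 9 enzymes fell and 0 rose, with the mitochondrial folate enzymes lowest. The 4 mitochondrial enzymes were at 38.4% to 53.0% of their GAP-scr mean, the 3 serine synthesis enzymes at 65.2% to 81.9%, and Asns at 64.5%. Changes are log2 differences of FPKM + 1, tested with limma over the 6 libraries, with p-values adjusted by Benjamini-Hochberg over all 10993 genes and a threshold of 0.05. Over all tested genes 11.3% were lower and 28% higher by this rule. The median log2 change was -0.63 for the 9 enzymes and 0.13 for all genes.

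Phgdh, which commits 3-phosphoglycerate to serine, was at 94.8 and 119 FPKM in GAP-scr and at 68.5 and 71.2 in GAP-2/3. Both GAP-2/3 libraries lay below both controls. The log2 change was -0.60 ± 0.13 (SE; adjusted p = 0.00383). Without GAP-2/3 replicate A it was -0.57 with adjusted p = 0.0599.

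Psat1, the next enzyme, was at 200.2 and 199.4 FPKM in GAP-scr and at 166 and 161 in GAP-2/3. The controls differed little and both GAP-2/3 libraries were lower. This was the smallest of the called changes, -0.29 ± 0.10 (adjusted p = 0.0428). The call was lost when any 1 of the 6 libraries was left out (adjusted p from 0.0518 to 0.139) and in 10 of 16 alternatives in all.

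Psph, which releases free serine from its phosphate, was at 33.5 and 36.7 FPKM in GAP-scr and at 23.4 and 22.5 in GAP-2/3, without overlap. Its log2 change was -0.59 ± 0.12 (adjusted p = 0.00293) and stayed past the threshold in all 16 alternatives.

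Shmt2, the mitochondrial enzyme that opens the one-carbon route, was at 102 and 108 FPKM in GAP-scr and at 35.5 and 45.2 in GAP-2/3. Both GAP-2/3 libraries were below 50% of either control. With -1.37 ± 0.12 (adjusted p = 1.72e-05), Shmt2 had the 16th lowest log2 change of the 10993 genes.

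Mthfd2, the mitochondrial dehydrogenase and cyclohydrolase, was at 74.4 and 90.6 FPKM in GAP-scr and at 40.0 and 39.0 in GAP-2/3. The control libraries were further apart than the treated ones, and the groups did not overlap. Mthfd2 fell by 1.04 ± 0.13 on the log2 scale (adjusted p = 0.000209).

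Mthfd1l, which releases formate, was at 14.3 and 15.9 FPKM in GAP-scr and at 7.92 and 8.08 in GAP-2/3. The groups did not overlap, and the log2 change was -0.84 ± 0.14 (adjusted p = 0.00116).

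Aldh1l2, which oxidises the folate-bound unit to carbon dioxide, was at 59.3 and 57.5 FPKM in GAP-scr and at 26.2 and 29.7 in GAP-2/3. Replicates were close in both groups. Its log2 change was -1.04 ± 0.11 (adjusted p = 5.61e-05).

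Asns was at 118 and 124 FPKM in GAP-scr and at 80.2 and 75.9 in GAP-2/3, again without overlap. The log2 change was -0.63 ± 0.12 (adjusted p = 0.00288). The calls of Shmt2, Mthfd2, Mthfd1l, Aldh1l2 and Asns were kept in all 16 alternatives.

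Shmt1 was the exception. It was at 2.74 and 1.61 FPKM in GAP-scr and at 2.92 and 2.90 in GAP-2/3, so both treated libraries were higher than both controls, the nearer one by little. Its log2 change of 0.33 ± 0.16 did not pass (adjusted p = 0.133, 95% interval from -0.03 to 0.68). Without GAP-scr replicate A, the control with the higher level, it was 0.59 and passed (adjusted p = 0.00726).

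In all, 8 enzymes lay below and 1 lay above both controls in both GAP-2/3 libraries. Of all tested genes 22.3% lay below in that way and 46.7% above. Because the median change of all genes was 0.13, scaling the libraries to one median lowered every enzyme's change. After that scaling Shmt2 stood at -1.48, Aldh1l2 and Mthfd2 at -1.15 each, Psat1 at -0.40 and Shmt1 at 0.22, and the same count of 8 lower enzymes held.

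**Figure D2:**
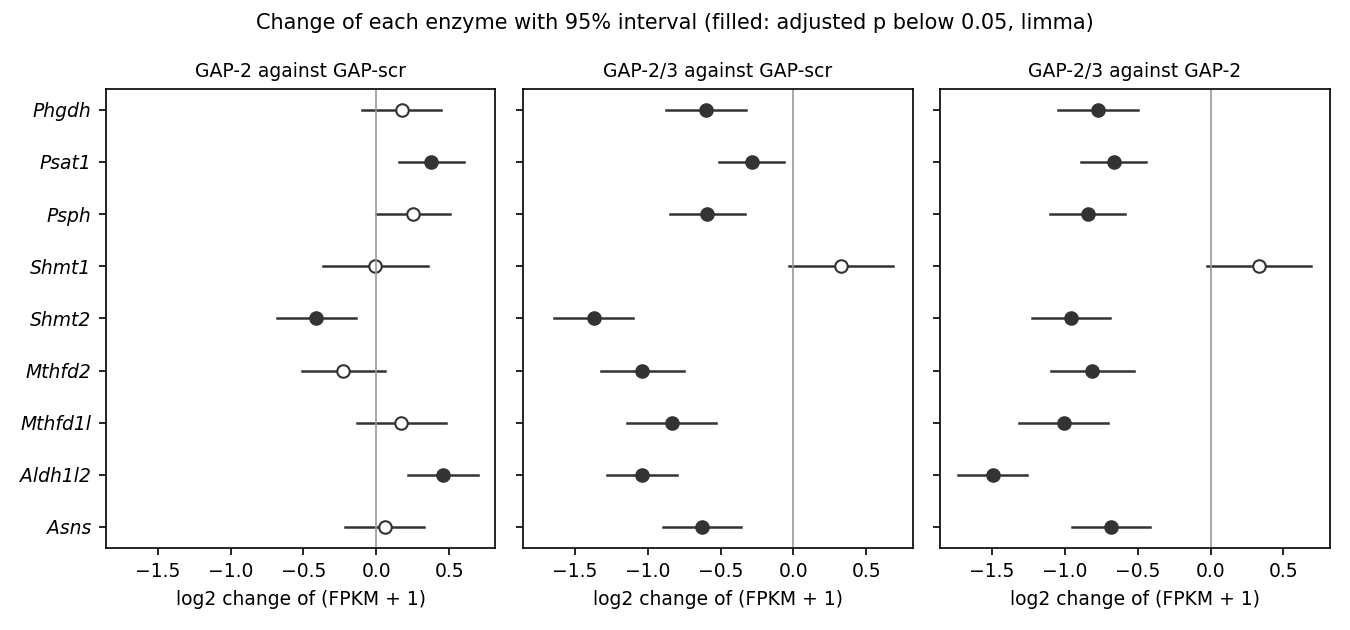
Log2 change of FPKM + 1 (horizontal axis) of each enzyme in the 3 comparisons, with its 95% interval as a line and a filled point where the adjusted p was below 0.05. GAP-2 moved 1 enzyme down and 2 up, and GAP-2/3 against either other group moved 8 down.

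The comparison of GAP-2 with GAP-scr asked the same of the first gapmer set, against the same control libraries. In it 1 enzyme fell, Shmt2, and 2 rose, Aldh1l2 and Psat1, while the other 6 did not pass. By the same rule 4.18% of all tested genes were lower and 10.4% higher. The median log2 change was 0.17 for the 9 enzymes and 0.07 for all genes. None of the 3 calls was kept when either GAP-2 library was left out, which gave 0 enzymes in each direction.

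Shmt2 was at 79.0 and 78.6 FPKM in GAP-2, below the 102 and 108 of GAP-scr, at 74.9% of the control mean. The log2 change was -0.41 ± 0.12 (adjusted p = 0.0448). It did not pass without GAP-scr replicate B (adjusted p = 0.101), without GAP-2 replicate A (0.179) or without GAP-2 replicate B (0.229), and at 0.0809 without both libraries highest in Rn45s.

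Aldh1l2 was at 78.2 and 82.9 FPKM in GAP-2, above the 59.3 and 57.5 of GAP-scr, at 138% of the control mean. The log2 change was 0.46 ± 0.11 (adjusted p = 0.0185), with adjusted p = 0.0883 without GAP-2 replicate A and 0.193 without replicate B. Aldh1l2 and Shmt2 act in the same organelle, one on the carrier loaded by the other, and were called in opposite directions.

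Psat1 was at 251 and 270.1 FPKM in GAP-2, above the 200.2 and 199.4 of GAP-scr, at 130.3% of the control mean. Its log2 change was 0.38 ± 0.10 (adjusted p = 0.0301). The call was lost without either GAP-2 library (adjusted p = 0.129 without A and 0.314 without B), without either GAP-2/3 library (0.0595 without A and 0.0601 without B), and after scaling to one median (0.0789).

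Phgdh was at 114 and 127 FPKM in GAP-2 and Psph at 38.7 and 45.5, with log2 changes of 0.17 ± 0.13 and 0.25 ± 0.12 (adjusted p = 0.359 and 0.159). The Psph libraries did not overlap with those of GAP-scr and the Phgdh libraries did. Mthfd2, at 63.3 and 77.6 FPKM, Mthfd1l, at 14.8 and 19.8, and Asns, at 112 and 142, each overlapped with GAP-scr, with log2 changes of -0.23 ± 0.13, 0.17 ± 0.14 and 0.06 ± 0.12. Shmt1, at 1.91 and 2.32 FPKM, had a log2 change of -0.01 ± 0.16. Of the 9 enzymes 3 lay above both controls in both GAP-2 libraries and 1 below. Among all tested genes those shares were 39.8% and 22.4%.

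The direct comparison of GAP-2/3 with GAP-2 tested whether the 2 gapmer sets differed, without use of the control libraries in the contrast. Again 8 of 9 enzymes were lower in GAP-2/3 and 0 higher, with a median log2 difference of -0.81 against 0.05 for all genes. Among all tested genes 3.65% were lower and 6.5% higher. Aldh1l2 differed most, at 26.2 and 29.7 FPKM against 78.2 and 82.9, so that GAP-2/3 was at 34.7% of GAP-2. Its log2 difference of -1.50 ± 0.11 (adjusted p = 1.07e-05) was the 14th lowest of the 10993 genes.

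The other mitochondrial enzymes followed with -1.01 ± 0.14 for Mthfd1l, -0.96 ± 0.12 for Shmt2 and -0.81 ± 0.13 for Mthfd2 (adjusted p = 0.00104, 0.000618 and 0.00276). Serine synthesis enzymes stood at -0.84 ± 0.12 for Psph, -0.77 ± 0.13 for Phgdh and -0.67 ± 0.10 for Psat1 (adjusted p = 0.00104, 0.00286 and 0.00196). Asns differed by -0.68 ± 0.12 (adjusted p = 0.00564). Shmt1 did not pass, at 0.33 ± 0.16 (adjusted p = 0.227).

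All 9 enzymes separated the 2 gapmer groups without overlap, 8 with GAP-2/3 below and Shmt1 with GAP-2/3 above. Over all tested genes 23% lay below in that way and 38.5% above. Leaving out GAP-2/3 replicate A or replicate B left 5 of the 8 calls. Phgdh (adjusted p = 0.0855 without A and 0.0612 without B), Mthfd2 (0.0745 and 0.0736) and Asns (0.0875 and 0.0982) no longer passed, and Asns also did not pass without GAP-2 replicate B (0.0765).

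Ratios within a library show how the members shifted against each other, independent of the library's scale. The summed level of the 4 mitochondrial folate enzymes was 250.3 and 272 FPKM in GAP-scr, 235 and 259 in GAP-2, and 109.6 and 122 in GAP-2/3. For Phgdh, Psat1 and Psph together it was 328 and 355, then 403 and 443, then 258 and 255 FPKM. The first sum divided by the second was 0.762 and 0.765 in GAP-scr, 0.584 and 0.585 in GAP-2, and 0.425 and 0.479 in GAP-2/3. The 3 groups did not overlap in this ratio, and both gapmer sets lay below the control. In GAP-2 the serine synthesis sum was higher than in GAP-scr and the mitochondrial sums overlapped, whereas in GAP-2/3 both sums were lower.

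Aldh1l2 per Shmt2 was 0.580 and 0.532 in GAP-scr, 0.991 and 1.06 in GAP-2, and 0.738 and 0.658 in GAP-2/3. This ratio was highest in GAP-2 and did not overlap between any 2 groups. Psat1 per Shmt2 was 1.96 and 1.85 in GAP-scr, 3.17 and 3.44 in GAP-2, and 4.68 and 3.57 in GAP-2/3, so it was higher than control in all 4 gapmer libraries. These ratios, and those of the summed levels, were not tested beyond the overlap of their libraries. How often ratios of other genes separate the groups was not computed.

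The close relatives of the mitochondrial enzymes did not pass. Mthfd1, the cytosolic enzyme that takes up formate, was at 17.5 and 14.9 FPKM in GAP-scr and at 13.9 and 16.0 in GAP-2/3, with overlap. Its log2 change of -0.10 ± 0.12 did not pass (adjusted p = 0.525, 95% interval from -0.38 to 0.17), while Mthfd1l fell by 0.84. Mthfd2l, the other mitochondrial dehydrogenase, was at 4.19 and 4.15 FPKM in GAP-scr and at 4.85 and 4.64 in GAP-2/3. The log2 change was 0.15 ± 0.12 (adjusted p = 0.338, 95% interval from -0.11 to 0.42), while Mthfd2 fell by 1.04. The interval of neither relative reached the change of its partner, and the difference within a pair was not tested further.

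Within libraries, Mthfd2 exceeded Mthfd2l 17.7- and 21.8-fold in GAP-scr, 13.2- and 14.0-fold in GAP-2, and 8.25- and 8.40-fold in GAP-2/3. Mthfd1l per Mthfd1 was 0.819 and 1.07 in GAP-scr, 0.836 and 1.19 in GAP-2, and 0.570 and 0.503 in GAP-2/3. Shmt2 per Shmt1 went from the control ratios given above to 41.4 and 33.8 in GAP-2 and 12.1 and 15.6 in GAP-2/3. In all 3 pairs GAP-2/3 had the lowest ratios, without overlap with either other group. The share of other gene pairs that separate in this way was not computed. The relative of Aldh1l2, cytosolic Aldh1l1, is not analysed here.

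**Figure D3:**
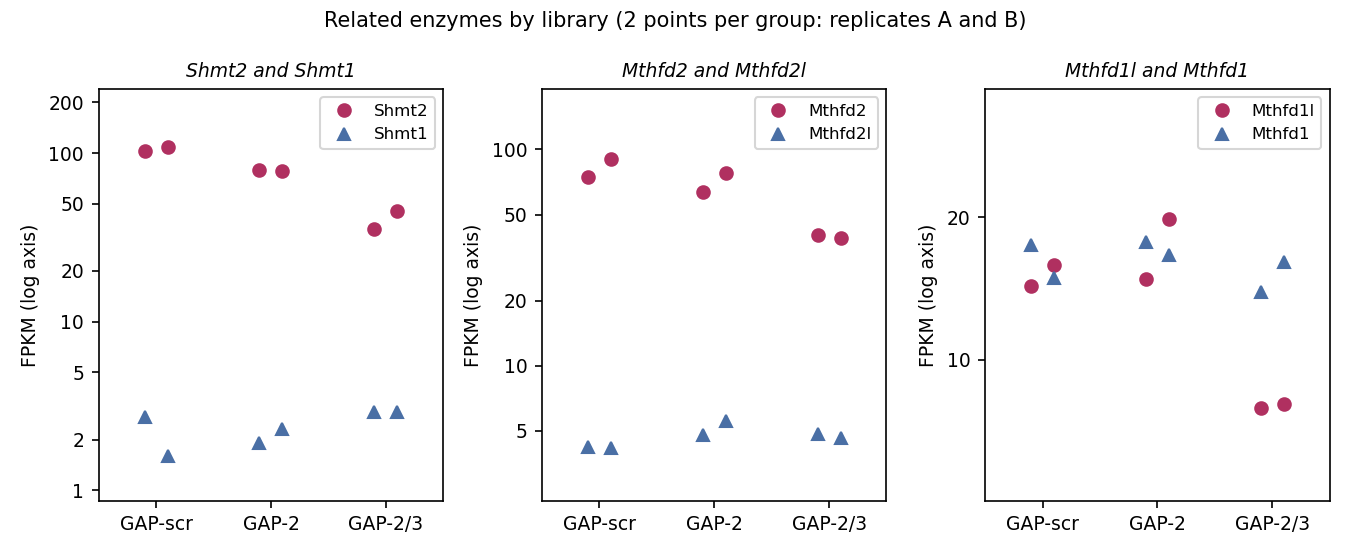
FPKM on a log axis of 3 pairs of related enzymes in the 3 groups, with 1 point per library. Shmt2, Mthfd2 and Mthfd1l (circles) are lowest in GAP-2/3, whereas Shmt1, Mthfd2l and Mthfd1 (triangles) passed in no comparison. The distance of Shmt2 from Shmt1 and of Mthfd2 from Mthfd2l is smallest in GAP-2/3.

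The pathways on both sides of the enzymes were described from lists of genes by function. Over all tested genes 28% were higher and 11.3% lower in GAP-2/3 against GAP-scr, and 10.4% and 4.18% in GAP-2. In GAP-2/3 against GAP-2 the shares were 6.5% higher and 3.65% lower. With so few genes in each folate, glycine and purine list, nothing particular to these lists is read from counts near those shares. Of 6 other folate and formate enzymes tested, 0 passed in GAP-2 and 1 rose in GAP-2/3 against GAP-scr, Mthfs, which recycles 5-formyltetrahydrofolate. Mthfs was near the limit of the table, at 1.17 and 1.74 FPKM in GAP-scr and 3.08 and 1.94 in GAP-2/3, and its call was lost under either scaling and without GAP-scr replicate A or GAP-2/3 replicate A. Of 5 genes of folate transport and retention 2 rose in GAP-2/3 and 0 fell. They were Slc25a32, the mitochondrial folate carrier (0.50 ± 0.13, adjusted p = 0.00958), and Ggh, which trims folate polyglutamates (0.71 ± 0.12, adjusted p = 0.0011). Slc25a32 also rose in GAP-2 (0.42 ± 0.13, adjusted p = 0.0466), a call lost under either scaling and without any 1 library other than GAP-scr replicate A. Its call in GAP-2/3 was lost without GAP-2/3 replicate A.

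Among users of one-carbon units, 2 of 12 genes of purine and thymidylate synthesis rose and 1 fell in GAP-2/3 against GAP-scr. Paics, a bifunctional enzyme of purine synthesis, was at 56.7 and 60.6 FPKM in GAP-scr and at 103 and 95.1 in GAP-2/3 (0.74 ± 0.11, adjusted p = 0.000562). Gmps, which makes GMP, rose by 0.54 ± 0.12 (adjusted p = 0.00444), a call lost without GAP-2/3 replicate A, and Impdh1, the step before it, fell by 0.65 ± 0.12 (adjusted p = 0.00208). In GAP-2 the single gene of this list that passed was Tk1, thymidine kinase, at -0.64 ± 0.13 (adjusted p = 0.00786), a call lost without either GAP-2 library. Of 6 genes of glycine cleavage and serine catabolism 1 rose in GAP-2/3, Dld, a subunit shared with other dehydrogenases. That call was lost after scaling to one median and without GAP-scr replicate B or GAP-2/3 replicate A.

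In the methionine cycle and transsulfuration list (7 tested) Cth, cystathionine gamma-lyase, had the pattern of Aldh1l2 and Psat1. It was at 4.38 and 5.13 FPKM in GAP-scr, 7.64 and 8.87 in GAP-2 and 3.30 and 3.23 in GAP-2/3. Its 3 groups did not overlap. The log2 change was 0.69 ± 0.13 in GAP-2 (adjusted p = 0.00564), -0.43 ± 0.13 in GAP-2/3 (adjusted p = 0.0204) and -1.12 ± 0.13 between the gapmer sets (adjusted p = 0.000274). The first call was lost without GAP-2 replicate B, and the second without GAP-scr replicate B or either GAP-2/3 library. Mtr, methionine synthase, rose in GAP-2 (0.42 ± 0.12, adjusted p = 0.0414), a call lost under either scaling and without any 1 library other than GAP-scr replicate A.

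Transporters of serine and other neutral or basic amino acids fell with the enzymes in GAP-2/3. Of 11 tested, 7 fell and 2 rose against GAP-scr, and 8 fell and 0 rose against GAP-2, with medians of -0.68 and -0.73. Slc7a5, the light chain of the large neutral amino acid transporter, was at 60.3 and 68.6 FPKM in GAP-scr, 44.5 and 48.1 in GAP-2 and 16.3 and 18.5 in GAP-2/3. Its 3 groups did not overlap, and it fell by 1.83 ± 0.12 in GAP-2/3 (adjusted p = 1.32e-06). Its heavy chain Slc3a2 fell by 1.03 ± 0.11 (adjusted p = 8.49e-05), the glycine transporter Slc6a9 by 1.34 ± 0.12 (adjusted p = 1.23e-05) and the cationic amino acid transporter Slc7a1 by 0.85 ± 0.13 (adjusted p = 0.000798). The 2 that rose against GAP-scr were Sfxn1, the mitochondrial serine carrier (0.42 ± 0.12, adjusted p = 0.0164), and its relative Sfxn3 (0.31 ± 0.11, adjusted p = 0.0393). Under quantile normalization or scaling to one median the count was 8 lower and 0 higher, so both rises depended on the scaling, and 5 of the 8 falls against GAP-2 were kept without either GAP-2/3 library.

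In GAP-2 this list had 1 lower gene, Slc7a5 (-0.47 ± 0.12, adjusted p = 0.0232), and 1 higher, Sfxn1 (0.51 ± 0.12, adjusted p = 0.016). Both calls were lost without either GAP-2 library, and that of Slc7a5 also without GAP-scr replicate B.

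Among enzymes of proline, glutamate and aspartate metabolism 3 fell in GAP-2/3 against GAP-scr. They were Pycr1 and Aldh18a1, of proline synthesis, and Gpt2, the mitochondrial alanine aminotransferase, at -0.81 ± 0.13, -0.96 ± 0.12 and -0.98 ± 0.15 (adjusted p = 0.001, 0.000227 and 0.000585). Oat, which runs between ornithine and glutamate semialdehyde, rose by 0.54 ± 0.12 (adjusted p = 0.00458), a call lost without GAP-2/3 replicate A. None of these 4 genes passed in GAP-2.

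Upper glycolysis supplies 3-phosphoglycerate, the substrate of PHGDH. Of 11 genes from the glucose transporter to phosphoglycerate kinase 8 fell and 0 rose in GAP-2/3 against GAP-scr, and in GAP-2 0 passed. Hk2, hexokinase, was at 23.1 and 21.2 FPKM in GAP-scr, 20.8 and 22.6 in GAP-2 and 9.50 and 9.89 in GAP-2/3. The GAP-2 libraries overlapped with the controls and GAP-2/3 lay far below both groups, with a log2 change of -1.11 ± 0.11 (adjusted p = 4.32e-05). Slc2a1, the glucose transporter GLUT1, fell by 0.89 ± 0.13 (adjusted p = 0.00053), Pfkl by 0.89 ± 0.14 (adjusted p = 0.000697) and Aldoa by 0.45 ± 0.11 (adjusted p = 0.00881). Without GAP-2/3 replicate A the count of lower genes was 3, and Aldoa was not among them. Against GAP-2 3 genes were lower, Slc2a1, Hk2 and Pfkl, with 7 when the GAP-scr libraries were kept out of the fit.

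The list of ATF4 and other regulators has 11 tested members. In GAP-2/3 3 fell and 1 rose against GAP-scr, and 5 fell and 0 rose against GAP-2. In GAP-2 against GAP-scr 0 fell and 2 rose. Atf4 itself was at 429 and 383 FPKM in GAP-scr, 405 and 463 in GAP-2 and 337 and 363 in GAP-2/3. It was lowest in GAP-2/3 without overlap but passed in no comparison (-0.21 ± 0.12, adjusted p = 0.16, against GAP-scr; -0.31 ± 0.12, adjusted p = 0.117, against GAP-2). The second depended on the fit, and Atf4 was lower than in GAP-2 with only the groups compared (adjusted p = 0.0399) and without replicate A or B of GAP-scr (0.0406 and 0.0403). RNA level does not report translation of Atf4, the step at which it is mainly controlled.

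Atf5, a related factor, was at 85.8 and 114 FPKM in GAP-scr, 121 and 117 in GAP-2 and 51.7 and 53.9 in GAP-2/3, and fell in GAP-2/3 by 0.89 ± 0.13 (adjusted p = 0.000541). Ddit3, which encodes CHOP, was at 39.1 and 50.6 FPKM in GAP-scr, 105 and 117 in GAP-2 and 36.7 and 42.3 in GAP-2/3. GAP-2 stood far above both other groups, which overlapped. Ddit3 rose by 1.30 ± 0.14 in GAP-2 (adjusted p = 0.000143) and did not pass in GAP-2/3 (-0.17 ± 0.14, adjusted p = 0.334), although it did without GAP-scr replicate A (-0.35, adjusted p = 0.0425). The gapmer sets differed by -1.47 ± 0.14 (adjusted p = 6.12e-05).

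Myc (-0.42 ± 0.12, adjusted p = 0.0185) and Ppp1r15a, the phosphatase subunit that reverses eIF2 phosphorylation (-0.41 ± 0.15, adjusted p = 0.0451), also fell in GAP-2/3 against GAP-scr, and neither passed without GAP-2/3 replicate A. Myc also did not pass without GAP-scr replicate B, nor Ppp1r15a without GAP-scr replicate A or either GAP-2 library. Against GAP-2, the log2 differences of Atf5, Myc and Ppp1r15a were -1.16 ± 0.13, -0.66 ± 0.12 and -0.72 ± 0.15 (adjusted p = 0.000241, 0.00637 and 0.0107). Cebpg, the C/EBP partner of ATF4, was lower in GAP-2/3 than in GAP-2 (-0.62 ± 0.13, adjusted p = 0.0107), a call lost without GAP-2 replicate B or either GAP-2/3 library. Against GAP-scr Cebpg did not pass in GAP-2/3 (-0.27 ± 0.13, adjusted p = 0.112), but it was lower under quantile normalization (adjusted p = 0.0314), scaling to one median (0.0345) and without GAP-scr replicate B (0.0246). In GAP-2 Cebpg did not pass either (0.36 ± 0.13, adjusted p = 0.0803). Its log2 change there was 0.50 without GAP-scr replicate A and 0.56 without both libraries highest in Rn45s. Cebpb ranged from 9.72 to 23.5 FPKM within GAP-scr and passed in no comparison, while leaving out replicate A or B of GAP-scr gave a lower call in GAP-2/3 (adjusted p = 0.0427) or a higher call in GAP-2 (0.0262). Within GAP-2/3 Cebpb was at 19.4 and 9.49 FPKM, also far apart. Without both libraries highest in Rn45s, its log2 change in GAP-2/3 was -0.74 against GAP-scr and -0.62 against GAP-2. That fit leaves GAP-scr and GAP-2 with 1 library each, so it gives no measure of their spread. Of the kinases that phosphorylate eIF2, Eif2ak1, Eif2ak3 and Eif2ak4 passed in no comparison. Eif2ak2, the double-stranded RNA sensor PKR, rose in GAP-2 (0.61 ± 0.15, adjusted p = 0.0204) and in GAP-2/3 (0.71 ± 0.15, adjusted p = 0.00379). The first of these was lost without GAP-scr replicate B or any 1 gapmer library, and the second without GAP-2/3 replicate A.

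Of 19 other ATF4 target genes 16 fell and 1 rose in GAP-2/3 against GAP-scr, and 16 fell and 0 rose against GAP-2. In GAP-2 0 fell and 7 rose. Among all tested genes 11.3%, 3.65% and 4.18% were lower in these comparisons, and 28%, 6.5% and 10.4% higher. The medians were -0.65, -0.98 and 0.18. Gpt2 is counted here and among the enzymes of glutamate metabolism. Leaving out GAP-2/3 replicate A lowered the 16 to 10 against GAP-scr and to 8 against GAP-2, leaving out GAP-2/3 replicate B lowered the second to 10, and leaving out GAP-2 replicate B lowered the 7 to 4.

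Chac1, which degrades glutathione, was at 33.7 and 33.2 FPKM in GAP-scr, 31.6 and 41.8 in GAP-2 and 10.6 and 12.1 in GAP-2/3. It fell by 1.49 ± 0.14 in GAP-2/3 (adjusted p = 2.12e-05), alongside the hormone genes Fgf21 (-1.59 ± 0.18, adjusted p = 0.000102) and Adm2 (-1.50 ± 0.17, adjusted p = 0.00011). Gdf15, a stress hormone, was at 11.3 and 10.1 FPKM in GAP-scr, 22.8 and 20.2 in GAP-2 and 3.81 and 4.40 in GAP-2/3. It had no overlap between groups, rose in GAP-2 (0.95 ± 0.13, adjusted p = 0.000776) and fell in GAP-2/3 (-1.20 ± 0.13, adjusted p = 5.47e-05), the directions of Aldh1l2 and Psat1. Trib3, a pseudokinase that restrains ATF4 signalling, also rose in GAP-2 (0.67 ± 0.17, adjusted p = 0.0232) and fell in GAP-2/3 (-1.24 ± 0.17, adjusted p = 0.000367). The first was lost without GAP-scr replicate A or GAP-2 replicate B. Nupr1, a stress-induced chromatin protein, rose in both, by 0.90 ± 0.13 and 1.13 ± 0.13 (adjusted p = 0.00149 and 0.000132).

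**Figure D4:**
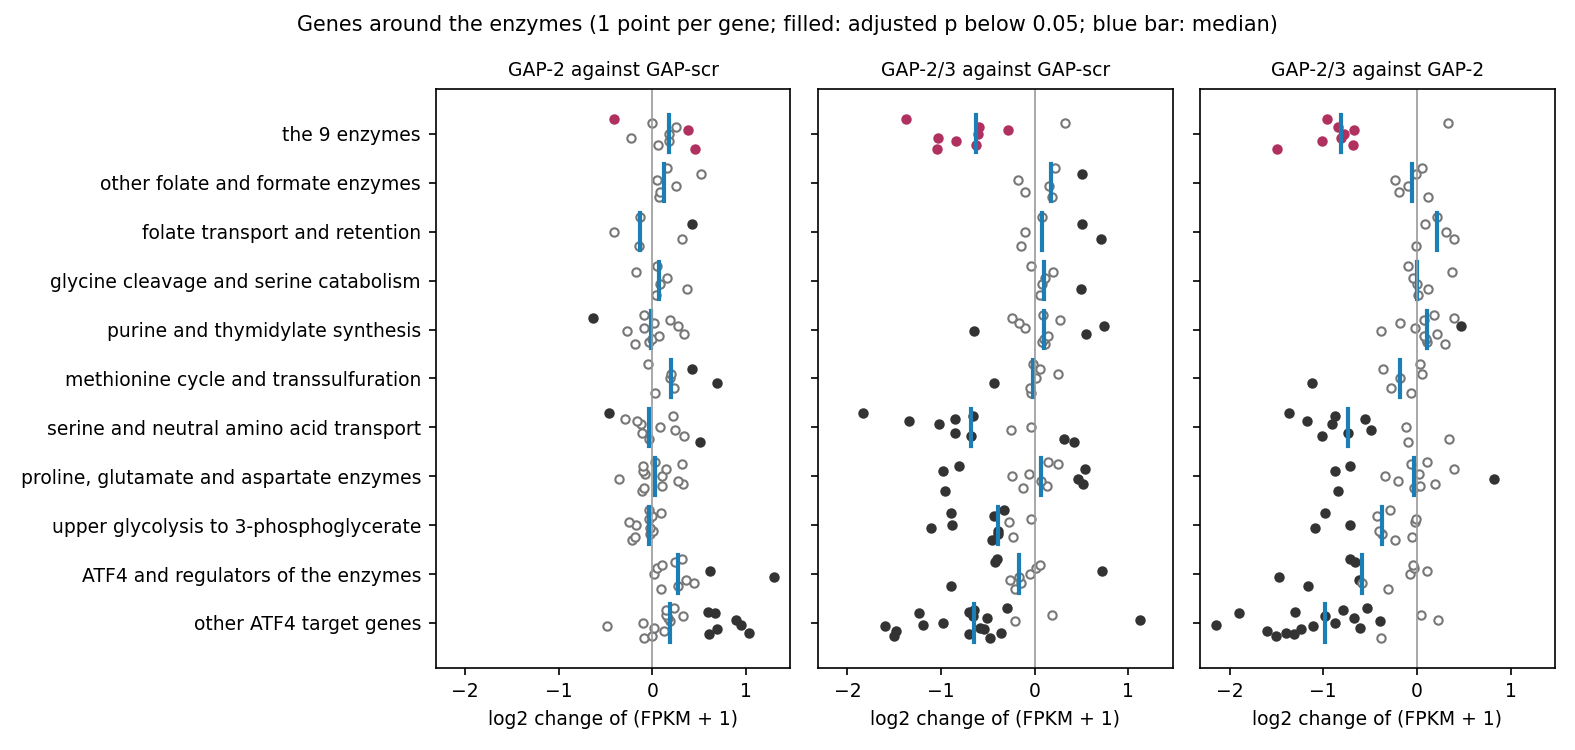
Log2 change of FPKM + 1 (horizontal axis) for each gene of the 9 enzymes and of 10 lists around them in the 3 comparisons, with filled points past the threshold and a blue bar at the median. In both comparisons of GAP-2/3 the enzymes, the transporters, the upper glycolysis genes and the ATF4 targets lie mostly left of 0. The folate, glycine and purine lists lie around it.

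Genes whose level over the 6 libraries was most like the enzymes were found by Pearson correlation of log2(FPKM + 1) with the mean z-score of the 9, among the 8500 genes whose mean reached 5 FPKM. The 6 points fall into 3 groups of 2, so this describes shared group differences. The 8 most alike were Sars (0.995), Chac1 (0.993), Stbd1 (0.985), Dhrs7c (0.984), B4galt7 (0.983), Vegfa (0.983), Slc2a1 (0.982) and Pgm2 (0.979). Sars, the seryl-tRNA synthetase, was at 92.8 and 96.4 FPKM in GAP-scr, 99.9 and 112.6 in GAP-2 and 65.8 and 66.3 in GAP-2/3. All 8 but B4galt7 fell in GAP-2/3 against GAP-scr, and none of the 8 passed in GAP-2. They were picked for likeness to the enzymes over the same libraries, so these falls are no separate result.

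For single enzymes the most alike gene was Lonp1, a mitochondrial protease, for Phgdh (0.993), Chka for Psph (0.998), Dnm2 for Shmt2 (0.9999), Sars for Mthfd1l (0.993) and the lactate transporter Slc16a3 for Mthfd2 (0.992). It was B4galt7 for Aldh1l2 (0.998), Vegfa for Asns (0.984), 9030624J02Rik for Psat1 (0.996) and Wdpcp for Shmt1 (0.989). Dnm2, at 31.4 and 32.3 FPKM in GAP-scr, 27.6 and 27.3 in GAP-2 and 18.4 and 20.8 in GAP-2/3, followed even the replicate difference of Shmt2 in GAP-2/3. Its fall there was smaller (-0.68 ± 0.11, adjusted p = 0.00101). Dnm2 was picked as the most alike of the 8500 genes over the same libraries, so this likeness is no separate result.

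The second assay of the series, ChIRP-seq, pulled down Charme with DNA probes and sequenced the chromatin that came with it. The deposited list holds 798 merged peaks. No peak overlapped the span of any of the 9 enzyme genes. The nearest lay 15015 bp beyond the end of Mthfd1l, and the next nearest were 147244 bp from Aldh1l2 and 193463 bp from Mthfd2. The other 6 genes were between 0.332 and 3.37 Mb from a peak, with Asns farthest. Overlaps and distances were not computed for all genes, so nothing particular to the enzymes is read from them. These distances take the peak positions as GRCm38, a build inferred from the positions, whereas the submitters' processing notes name mm9, and they do not hold if the positions are on mm9.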

How the data were processed

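The data were 6 RNA-seq libraries, 3 groups of 2, and a ChIRP peak list. The authors deposited FPKM values, 1 column per library, for 11228 genes, and the sources used here do not give the filter behind that list. The peak file was deposited by the authors with a score per merged peak, which was not used beyond the peak positions. The submitters' processing notes name TopHat2, Cufflinks, Cuffdiff, Bowtie2, MACS, bedtools and the build mm9, without roles or versions. Depth is unknown, so no count model was fitted.

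Values were taken as log2(FPKM + 1) for the 10993 genes whose mean reached 1 FPKM (235 did not). The pseudocount of 1 understates changes of low genes such as Shmt1. All 3 groups were fitted together in limma 3.58.1 (R 4.3.3) without a covariate and with an intensity trend, with Benjamini-Hochberg adjustment over all genes tested and a threshold of 0.05. The fit was tested on simulated data. Promoters were searched and distances computed in Python 3.11.15.

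The 9 enzymes, the lists around them and the tests were chosen with earlier results of these data known. Named genes were the 9, their relatives, up to 4 members of each list with the smallest p for GAP-2/3 against GAP-scr, all tested regulators in the ATF4 list, and the genes most alike. Tk1, Sfxn1, Sfxn3, Trib3 and Nupr1 were named after their values were seen. Alternatives were quantile normalization, scaling to one median, a pseudocount of 0.1, a minimum mean of 5 FPKM or none, a replicate block, no trend, only the groups compared, a threshold of 0.1, and each library left out. The fit without both libraries highest in Rn45s was added after the data were seen.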

Additional observations from a re-analysis of the deposited data

Results flagged for a closer look

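Psat1 and Aldh1l2 moved in opposite directions in the 2 gapmer groups. They were flagged by a rule on the difference between those groups, which comes from the limma comparison given above. That difference was part of how the 2 genes were picked, so its adjusted p-values here are no separate result. Psat1 rose by 0.38 in GAP-2 and fell by 0.29 in GAP-2/3 against the same GAP-scr libraries, and GAP-2/3 differed from GAP-2 by -0.67 ± 0.10 (adjusted p = 0.00196), with GAP-2/3 lower in both of its libraries. Aldh1l2 rose by 0.46 and fell by 1.04, and the gapmer groups differed by -1.50 ± 0.11 (adjusted p = 1.07e-05), again with both GAP-2/3 libraries lower. Both differences between the gapmer groups stayed past the threshold in all 16 alternatives (largest adjusted p = 0.0483 for Psat1 and 0.00439 for Aldh1l2). The changes against GAP-scr were less stable. The fall of Psat1 in GAP-2/3 was lost in 10 of 16 alternatives, among them each fit with 1 library left out. Its rise in GAP-2 was lost in 7 of 16. The rise of Aldh1l2 in GAP-2 was lost in 2, without GAP-2 replicate A or without replicate B.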

How the results depend on the processing

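For GAP-2/3 against GAP-scr the count of lower enzymes ran from 6 to 8 over the alternatives. It was 6 without GAP-2/3 replicate A, where Psat1 and Phgdh did not pass, and 7 with no intensity trend, with only the groups compared and without any other 1 library, where Psat1 did not. Without both libraries highest in Rn45s it was 7, with 1 enzyme higher, Shmt1, as it was without GAP-scr replicate A. Left-out libraries gave 0 to 1 higher enzymes and 1538 (without GAP-2/3 replicate A) to 4481 genes past the threshold, against 4323. For GAP-2/3 against GAP-2 the enzymes lower ranged from 5 to 8 over left-out libraries, and the genes past the threshold from 195 to 2052, against 1115, with 1781 at a threshold of 0.1 and 2055 with only the groups compared.

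For GAP-2 against GAP-scr, left-out libraries gave 0 to 1 lower enzymes, 0 to 2 higher enzymes and 504 to 2624 genes past the threshold, against 1604. That count was 2567 at a threshold of 0.1 and 937 with only the groups compared. Higher enzymes numbered 1 after scaling to one median, with only the groups compared and without both libraries highest in Rn45s, and lower enzymes 0 with no intensity trend and without both libraries highest in Rn45s. Enzymes that changed sign had all been short of the threshold. Shmt1, at -0.01, became 0.002 with a pseudocount of 0.1, 0.35 without both libraries highest in Rn45s, and from -0.27 to 0.25 over left-out libraries, positive without replicate A of GAP-scr or of GAP-2. It lies below the minimum mean of 5 FPKM and has no value there. Asns, at 0.06, became -0.012 after scaling to one median and ran from -0.11 to 0.23 over left-out libraries, and Mthfd1l, at 0.17, ran from -0.025 to 0.37, both negative without replicate B of GAP-2. The cause was not tested in any of these.

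Scaling also moved the split of all genes. Against GAP-scr, GAP-2/3 had 1242 lower and 3081 higher genes as deposited, 1817 and 1888 after scaling to one median, and 1960 and 1820 after quantile normalization. For GAP-2 the split was 460 and 1144, then 642 and 686, then 687 and 692. For GAP-2/3 against GAP-2 it was 401 and 714, then 436 and 476, then 503 and 493.

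The groups share only the replicate letters A and B, and nothing in the labels says what a letter shares. The A minus B differences correlated across genes at 0.36 between GAP-scr and GAP-2, -0.131 between GAP-scr and GAP-2/3 and -0.181 between GAP-2 and GAP-2/3. With a replicate block the genes past the threshold numbered 1955, 4466 and 1469 in the 3 comparisons, the enzymes lower 1, 7 and 8 and the enzymes higher 2, 0 and 0. Among the enzymes the block changed 1 call, that of Psat1 in GAP-2/3 against GAP-scr (-0.29, adjusted p = 0.0622). Where a left-out library leaves a group with 1, that library is assumed to vary like the other groups. The fit without both libraries highest in Rn45s leaves GAP-scr and GAP-2 with 1 library each. Calls gained or lost in it, such as that of Shmt1, therefore have no measure of the spread of those groups. With 2 libraries a group and unknown depth, small changes of low genes such as Shmt1 are the least certain.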
